A study of Homo sapiens with 4 samples.

Results

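The genes described here are those of the cytosolic ribosomal proteins, the protein part of the ribosome outside the mitochondrion. They were taken from the deposited expression table as every row whose symbol is RPL or RPS followed by a number, with or without a final A or X, together with RPSA, RPLP0, RPLP1 and RPLP2. This gave 77 genes of 59533 analysed, 31 of the small and 46 of the large subunit. Pseudogenes, paralogs whose symbol ends in L, and the ubiquitin-type fusion gene FAU are outside this set and are given beside it.

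RNA sequencing was done on 4 libraries from 2 established human lines, HCC1937, from a breast cancer, and THP-1, from a myeloid leukaemia. Both are labelled p53-/- and all 4 libraries come from cells that had been infected to carry p53-R282W, a missense mutant of p53. In each line 1 library is from untreated cells and 1 from cells given DAC (decitabine), a deoxycytidine analogue that traps DNA methyltransferases, at 0.3 µM for 5 days in HCC1937 and 5 µM for 2 days in THP-1. No library without the mutant was analysed here, the promoter that drives it and whether the infected cells were a clone or a pool are not given in the labels, and since each group is 1 library, replicate spread is unknown and nothing can be tested within a line. Line, dose and time differ together, so their parts in any difference between the lines cannot be told apart.

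Ribosomal proteins assemble with ribosomal RNA in the nucleolus into a small subunit, which reads the mRNA, and a large subunit, which joins amino acids. Most of their mRNAs begin with a C followed by an unbroken run of pyrimidines (the 5′ terminal oligopyrimidine, or TOP, motif), through which mTOR signalling and the RNA-binding protein LARP1 control their translation and stability as a group. Free RPL5, RPL11 and some other ribosomal proteins can bind MDM2, the ubiquitin ligase of p53, which ties ribosome assembly to p53.

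The start sites below are examples of what most of these genes share, and of RPL6 and RPS26, which lack it at the listed start. Each line has 20 bases before and 20 from the RefSeq transcription start on, 5′ to 3′ on the transcribed strand, and capitals mark an unbroken run of at least 5 pyrimidines that begins with C at the start itself. The sequences are from RefSeq on GRCh38.p14. The first 5 genes are those with the lowest differences in HCC1937 among those with a sequence in the table used, RPL39, RPL6 and RPS26 were not lower there, and EEF1A1 and TPT1 are TOP mRNAs that encode no ribosomal protein.
RPL13A (chr19:49487588-49487627, plus strand): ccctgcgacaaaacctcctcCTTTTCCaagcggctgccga
RPL10 (chrX:154398357-154398396, plus strand): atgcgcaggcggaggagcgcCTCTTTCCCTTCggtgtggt
RPL28 (chr19:55385912-55385951, plus strand): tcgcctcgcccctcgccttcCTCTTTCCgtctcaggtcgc
RPS12 (chr6:132814549-132814588, plus strand): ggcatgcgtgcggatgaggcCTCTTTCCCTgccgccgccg
RPS9 (chr19:54200838-54200877, plus strand): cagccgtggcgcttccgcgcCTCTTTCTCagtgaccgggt
RPL39 (chrX:119791611-119791650, minus strand): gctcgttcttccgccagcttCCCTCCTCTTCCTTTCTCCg
RPL6 (chr12:112409266-112409305, minus strand): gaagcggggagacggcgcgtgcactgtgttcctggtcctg
RPS26 (chr12:56041898-56041937, plus strand): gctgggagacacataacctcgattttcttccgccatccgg
EEF1A1 (chr6:73521013-73521052, minus strand): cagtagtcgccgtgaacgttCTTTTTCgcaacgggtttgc
TPT1 (chr13:45341164-45341203, minus strand): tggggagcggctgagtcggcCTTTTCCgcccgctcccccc
A start with such a run was listed for 46 of the 62 ribosomal protein genes that matched a sequence (74.2%), against 5.14% of all 27305 genes with a sequence and 4.07% of all 35116 starts. The run was 12 letters long in RPL10 and 19 in RPL39. In RPL6 and RPS26 the listed start is not followed by a run, which says only that these letters are not in this window. Other genes named below also lack it, among them RPL4, RPS4X, RPS28 and RPS29, which were lower in HCC1937. Of the 16 genes without a run, 10 were at least 20% lower there. RPL36A, which was not lower, has a run of 10 letters.

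The values are FPKM, reads divided by exon length and by depth, with counted depths of 18.8 M and 18.7 M reads in the untreated and DAC libraries of HCC1937 and 19.6 M and 19.8 M in THP-1. All 12 epithelial markers listed were at 1 FPKM or more in both HCC1937 libraries and 2 and 3 of them in THP-1. All 12 myeloid markers were at 1 FPKM or more in both THP-1 libraries and 0 and 2 in HCC1937, so both lines carried the markers of their label.

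Ribosomal protein mRNAs made up a smaller part of the DAC library than of the untreated library in HCC1937, and the same part of both THP-1 libraries. Their summed level was 22967 FPKM in untreated HCC1937 and 15863 FPKM with DAC, or 6.48% and 4.51% of counted reads. In bulk RNA, fewer cells of a kind and less of an mRNA per cell cannot be told apart. In THP-1 the sums were 70128 and 69450 FPKM, about 9.34% and 9.37% of counted reads. The THP-1 columns appear to use other gene lengths, so its reads per gene are approximate and levels compare only roughly between the lines. The median gene stood at 189 FPKM in untreated HCC1937 and 145 with DAC, and at 738 and 782 FPKM in THP-1.

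RPL8, a core protein near the peptidyl transferase centre, was the highest of the 77 in all 4 libraries, at 2965 and 2070 FPKM in untreated and DAC-treated HCC1937 and 3798 and 3446 FPKM in THP-1. In untreated HCC1937 the next in order were the small-subunit genes RPS12 (1185 FPKM), RPS18 (1115 FPKM) and RPS2 (808 FPKM). In untreated THP-1 RPS18 (2350 FPKM) and RPS6 (2288 FPKM), the target of the S6 kinases, were among the 4 highest. RPL36A was the lowest in all 4 libraries, at 2.47 and 2.80 FPKM in HCC1937 and 2.35 and 4.07 FPKM in THP-1. Above it came RPL9 (4.45 FPKM), RPS26 (4.58 FPKM) and RPL17 (7.44 FPKM) in untreated HCC1937, and RPS26 (9.50 FPKM), RPL9 (24.1 FPKM) and RPL39 (44.3 FPKM) in untreated THP-1. The HCC1937 order depends on the exon lengths used. With the exons of RefSeq-linked transcripts, RPS18 (3452) and RPS2 (1979) stood above RPS12 (1441) in untreated HCC1937, and RPL9 (29.8) above RPL17 (16.1). With 1 library per group, whether neighbours in these orders differ beyond the spread between cultures cannot be judged. The order of the 77 levels was nearly the same without and with DAC (Spearman rho 0.99 in HCC1937 and 1.00 in THP-1). It was less alike between the untreated lines, with rho 0.68 as deposited and 0.73 with HCC1937 on RefSeq-linked exon lengths. These are descriptions across genes that share their libraries and, within a line, their length model.

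**Figure D1:**
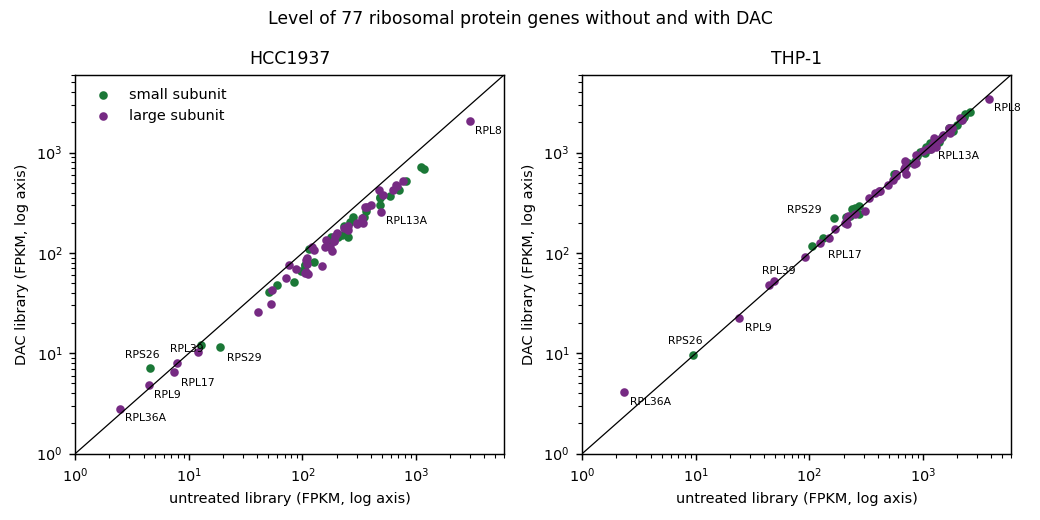
Each point is 1 of 77 ribosomal protein genes, with its FPKM in the untreated library on the x axis and in the DAC library on the y axis, both log axes, for HCC1937 (left) and THP-1 (right); green marks the small and purple the large subunit, and the line marks equal values. In HCC1937 72 points lie below the line, while in THP-1 38 do.

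In HCC1937 nearly the whole set was lower with DAC by a similar modest amount. Differences are given on the log2(FPKM + 1) scale, DAC minus untreated, over the 14058 genes at 1 FPKM or more in at least 1 of the HCC1937 libraries, which all 77 passed. Of the 77 genes, 72 were below 0, against 33.5% of all genes kept, and 76 were below the median of all genes kept, against 50% by construction. As a smaller size of change, genes at least 20% lower or at least 25% higher were counted on this same scale (a ratio of FPKM + 1 of 0.8 or its inverse). At least 20% lower were 58 of the 77 genes, against 13.4% of all genes kept, and at least 25% higher was 1 gene, RPS26, against 38.5%. At 2-fold, 1 gene was lower (background 1.44%) and 0 were higher (background 10.3%). The median difference was -0.47, a ratio of 0.72, with quartiles of -0.63 and -0.33 and a range of -1.0 to 0.53. All genes kept had a median of 0.19.

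Counting error is small beside these differences for most of the genes. The exact 95% interval of the ratio, made from estimated reads, lay below 1 for 70 of the 77 genes and above 1 for 1, against 21.6% and 51.1% of the 13637 genes for which it could be made. These intervals cover counting error only, not the differences between cultures. Genes of both subunits were lower, with a median of -0.51 over the 31 small-subunit genes and -0.44 over the 46 large-subunit genes. At least 20% lower were 25 of the 31 and 33 of the 46.

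Of the genes named here RPL13A had the lowest difference in HCC1937, -0.93. This large-subunit protein is also a subunit of the GAIT complex that silences inflammatory mRNAs (gene ENSG00000142541.16, GRCh38 chr19:49487554-49492308, plus strand). It had 492 FPKM untreated and 259 with DAC in HCC1937, a ratio of 0.53 (95% interval 0.51 to 0.54), and 1218 and 1162 FPKM in THP-1. RPL10, which completes the large subunit at the end of its assembly, had 111 and 62.0 FPKM in HCC1937, a ratio of 0.56 (0.54 to 0.58), and 215 and 192 FPKM in THP-1. The next were RPL28 (182 and 104 FPKM), RPS12 (1185 and 687 FPKM) and RPS9 (251 and 146 FPKM), with differences of -0.80, -0.79 and -0.78. In THP-1 these 3 genes differed by 0.07, 0.13 and -0.03. These 5 genes thus span levels from about 100 to over 1000 FPKM and both subunits.

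The 5 genes at the other end of the order had low values, with RPL6 as an exception. RPS26, RPL9 and RPL36A have 30, 16 and 19 pseudogene rows. How reads that fit both a gene and such rows were counted is not given, and its part in these low values was not tested. RPS26, which lines the mRNA exit channel of the small subunit (chr12:56041351-56044697, plus strand), stood at 4.58 FPKM untreated and 7.07 with DAC in HCC1937, on about 177 reads untreated, a ratio of 1.54 (1.27 to 1.87). In THP-1 it stood at 9.50 and 9.62 FPKM. RPL36A (2.47 and 2.80 FPKM), RPL9 (4.45 and 4.82 FPKM) and RPL39 (7.89 and 8.08 FPKM) were slightly above 0 in HCC1937, with intervals of the ratio that include 1. RPL6 had 75.5 and 75.9 FPKM on 6309 and 6303 reads, a ratio of 1.01 (0.97 to 1.04). Across the 77 genes the difference was somewhat lower at higher mean level (Spearman rho -0.35 across genes, which share both libraries). All 51 genes with a mean of 100 FPKM or more were below 0, with a median of -0.52, and the 26 others had a median of -0.34. Other genes at a mean of 100 FPKM or more also leaned lower in HCC1937, with a median of -0.19 over 398 genes, 145 of them at least 20% lower and 53 higher.

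**Figure D2:**
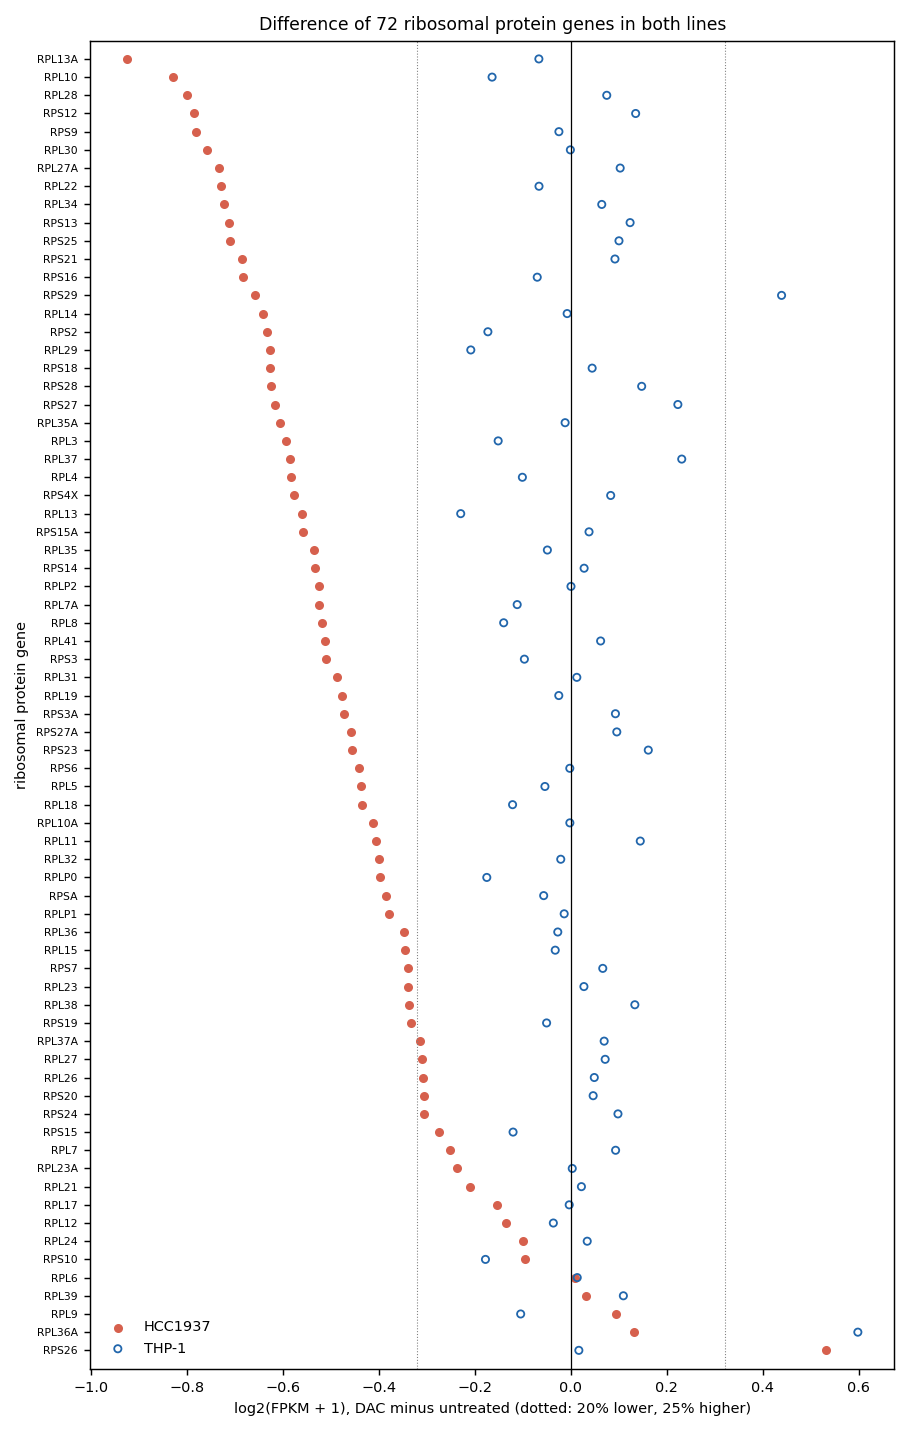
Each row is 1 of 72 ribosomal protein genes (the other 5 are not shown), ordered by its difference in HCC1937, and the x axis is the log2(FPKM + 1) difference, DAC minus untreated; filled points are HCC1937, open points THP-1, and dotted lines mark 20% lower and 25% higher. HCC1937 points run from -0.93 (RPL13A) to 0.53 (RPS26), and 70 of the 72 THP-1 points lie between the dotted lines.

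By role, the lower level in HCC1937 was found across the functional sites of both subunits. The 3 proteins of the acidic stalk, which recruits elongation factors, were all at least 20% lower, RPLP0 at 398 and 302 FPKM, RPLP1 at 372 and 285 FPKM and RPLP2 at 189 and 131 FPKM. In THP-1 the stalk genes had 1296 and 1148, 1514 and 1499, and 1088 and 1088 FPKM, with differences of -0.18, -0.01 and 0.00. RPL5 and RPL11, which carry 5S ribosomal RNA into the large subunit, had 253 and 187 FPKM and 194 and 146 FPKM in HCC1937, ratios of 0.74 and 0.75. With RPL23 (87.8 and 69.2 FPKM) and RPS7 (60.3 and 47.4 FPKM) they form the listed MDM2-binding proteins, and all 4 were at least 20% lower with a median of -0.37. In THP-1 the 4 had a median of 0.05, RPL11 (1253 and 1386 FPKM) being the highest and RPL5 (1405 and 1353 FPKM) the lowest.

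At the exit tunnel of the large subunit, through which the new protein leaves, 4 of 8 genes were at least 20% lower and 0 higher. Their median was -0.39. For all genes kept the shares were 13.4% lower and 38.5% higher, which also stand beside the next 2 lists. RPL4 (253 and 169 FPKM), RPL35 (621 and 428 FPKM), RPL31 (110 and 78.1 FPKM) and RPL19 (664 and 477 FPKM) were the lower ones. RPL26 (111 and 89.2 FPKM), RPL23A (125 and 106 FPKM), RPL17 (7.44 and 6.58 FPKM) and RPL39 were nearer to 0. Along the mRNA channel and decoding region of the small subunit, 5 of 7 genes were at least 20% lower and 1 higher, with a median of -0.51. The lower 5 were RPS25 (337 and 206 FPKM), RPS2 (808 and 520 FPKM), RPS28 (125 and 80.9 FPKM), RPS3 (207 and 145 FPKM) and RPS23 (105 and 76.3 FPKM), RPS15 had 278 and 230 FPKM, and the higher 1 was RPS26. Of the 17 genes listed for Diamond-Blackfan anaemia, an inherited failure of red cell production caused by mutations in ribosomal protein genes, 11 were at least 20% lower and 1 higher.

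The 4 genes on the X chromosome were not alike in HCC1937. RPS4X (225 and 150 FPKM) and RPL10 were at least 20% lower. RPL36A and RPL39 were slightly above 0, on about 184 and 318 untreated reads and with intervals of the ratio that include 1. With the reads of its pseudogene copies added, RPL39 differed by -0.33. In THP-1 RPS4X had 738 and 782 FPKM. The 12 genes on chromosome 19 had a median of -0.65 in HCC1937, with 12 below 0 and 11 at least 20% lower. The 65 ribosomal protein genes elsewhere had a median of -0.46, with 60 below 0 and 47 at least 20% lower. All 1100 genes kept on chromosome 19 had a median of 0.28, with 356 below 0 and 165 at least 20% lower. In THP-1 the same 12 had a median of -0.04 and the 65 others 0.02.

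In THP-1 the set as a whole stayed close to 0. Of the 12075 genes kept there, all 77 among them, 34.7% were below 0, and 38 of the 77 ribosomal protein genes were. The median was 0.003 with quartiles of -0.05 and 0.09 and a range of -0.23 to 0.60, against a median of 0.07 for all genes kept, and 54 of the 77 were below that median (50% by construction). At least 20% lower were 0 (background 3.59%) and at least 25% higher were 2 (background 10.9%), and at 2-fold 0 were lower (background 0.364%) and 0 higher (background 1.14%). The exact interval of the ratio lay below 1 for 24 genes and above 1 for 31, against 14% and 33.2% of the 11884 genes for which it could be made. The small-subunit median was 0.04 and the large-subunit median -0.003.

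The lowest in THP-1 were large- and small-subunit genes with differences of -0.23 to -0.16. They were RPL13 (308 and 263 FPKM), RPL29 (704 and 609 FPKM), RPS10 (275 and 243 FPKM), RPLP0, RPS2 (1843 and 1634 FPKM) and RPL10. In HCC1937 RPL13 had 761 and 515 FPKM, RPL29 303 and 196 FPKM, and RPS10 12.9 and 11.99 FPKM. The highest were RPL36A, RPS29, RPL37, RPS27, RPS23 and RPS28. RPL37 had 695 and 816 FPKM, RPS27 235 and 274 FPKM, RPS23 250 and 279 FPKM, and RPS28 106 and 117 FPKM, differences of 0.23 to 0.15. All 4 of these were at least 20% lower in HCC1937, at 174 and 115, 350 and 228, 105 and 76.3, and 125 and 80.9 FPKM. The ratio of RPL36A, 1.73, rests on about 41 reads untreated and has an interval of 1.15 to 2.58. Its readthrough gene RPL36A-HNRNPH2, which shares 8.40% of its exon bases, had 13.6 and 14.6 FPKM in THP-1.

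RPS29, a zinc-binding small-subunit protein (chr14:49570984-49599164, minus strand), was at least 20% lower in one line and at least 25% higher in the other. It stood at 18.9 FPKM untreated and 11.6 with DAC in HCC1937, a ratio of 0.61 (0.58 to 0.65). In THP-1 it stood at 163 and 221 FPKM, a ratio of 1.36 (1.34 to 1.38). The difference between the lines was not tested. No other ribosomal protein gene passed these sizes in opposite directions.

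**Figure D3:**
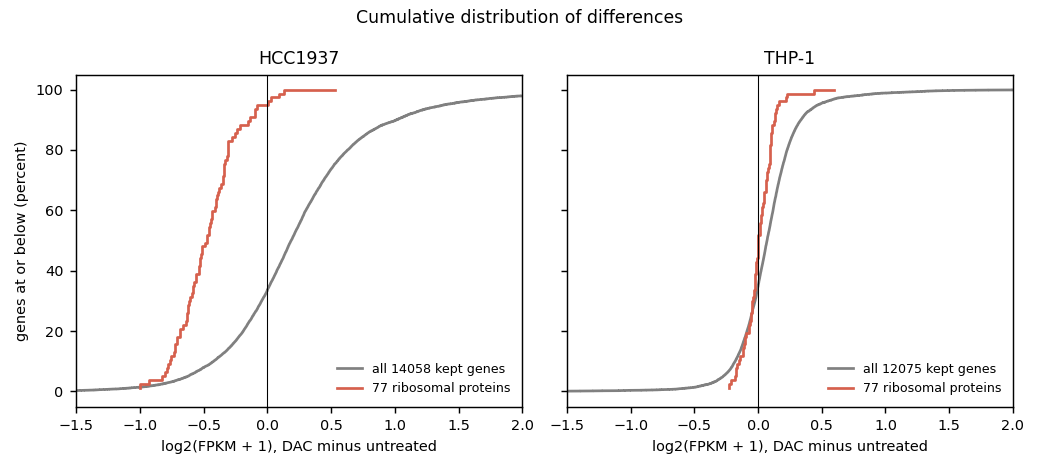
The curves give the percent of genes (y axis) at or below each log2(FPKM + 1) difference, DAC minus untreated (x axis, cut at the ends of the frame), for all genes kept (grey) and the 77 ribosomal protein genes (red). In HCC1937 the red curve lies to the left of the grey one, with medians of -0.47 and 0.19, and in THP-1 the medians are 0.003 and 0.07.

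The differences of single genes in the 2 lines were not related in order (Spearman rho 0.02 and Pearson r 0.09 across the 77 genes, which share their libraries). Over both lines together, limma with line as a block left 1 residual degree of freedom, which holds only how far the 2 responses were apart. It called 0 of 77 ribosomal protein genes and 0 of 9798 genes tested in either direction at an adjusted p of 0.05, so the background was 0% lower and 0% higher. At an unadjusted p of 0.05, 0 ribosomal protein genes and 121 of all genes (1.23%) were lower. The strongest result among the 77 was that of RPL10, lower in both lines, with a mean difference of -0.50 (SE 0.22) and a limma adjusted p of 0.64. The median mean difference was -0.23 over the 77 genes and 0.11 over all genes.

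Other mRNAs of the TOP class stood where the ribosomal proteins did in HCC1937. Of 19 listed, 18 were kept, 18 were below 0 (33.5% of all genes kept) and 14 were at least 20% lower (13.4%), with a median of -0.52. EIF3F, a subunit of initiation factor eIF3, had 21.8 and 11.3 FPKM, EEF1A1, which brings aminoacyl-tRNA to the ribosome, 1172 and 648 FPKM, TPT1, a conserved protein linked to growth, 315 and 175 FPKM, and BTF3, part of the nascent chain complex, 115 and 69.8 FPKM. PABPC1, the poly(A)-binding protein, had 388 and 260 FPKM, and EEF2, the translocase, 777 and 563 FPKM. In THP-1 18 of the listed TOP mRNAs were also kept, but not all the same genes. They had a median of -0.05 with 0 at either size of change (3.59% lower and 10.9% higher of all genes kept). EEF2 was the lowest of them there, at 1409 and 1176 FPKM, a difference of -0.26, followed by EIF3H (186 and 166 FPKM), PABPC1 (698 and 632 FPKM) and NPM1 (476 and 441 FPKM), and EEF1A1 had 875 and 842 FPKM. The list overlaps the initiation and elongation factor lists and includes FAU.

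Initiation factors went both ways in HCC1937. Of 36, 10 were at least 20% lower and 7 at least 25% higher (13.4% and 38.5% of all genes kept), with a median of 0.00. Without the 4 that are TOP mRNAs the median was 0.10, with 6 lower and 7 higher. EIF5, the GTPase activator of the initiation complex, had 23.3 FPKM untreated and 42.4 with DAC, EIF4B 50.1 and 32.1 FPKM, and EIF1, which guards start codon choice, 196 and 127 FPKM. In THP-1 the 36 had a median of 0.02 with 0 at either size of change, EIF5B (28.0 and 33.7 FPKM) and EIF3G (242 and 214 FPKM) being farthest from 0. Of 9 kept elongation and release factors in HCC1937, 4 were at least 20% lower and 2 higher. The lower ones were EEF1A1, EEF2, EEF1B2 (185 and 140 FPKM) and EEF1D (70.7 and 54.9 FPKM), all TOP mRNAs, and the higher ones EEF1E1 (9.35 and 13.1 FPKM) and ABCE1 (14.3 and 18.7 FPKM), which splits finished ribosomes.

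The factors that make ribosomes did not stand with the ribosomal proteins in HCC1937. Of 63 assembly factors kept, 2 were at least 20% lower and 22 at least 25% higher, with a median of 0.19, equal to that of all genes kept. For all genes kept the shares were 13.4% lower and 38.5% higher, which also stand beside the next 2 lists. UTP4 (17.0 and 31.5 FPKM), RIOK1 (8.78 and 15.9 FPKM), BYSL (31.2 and 53.6 FPKM) and DKC1, the pseudouridine synthase of ribosomal RNA (17.0 and 29.4 FPKM), were the farthest from 0. In THP-1 63 assembly factors were also kept, but not all the same genes, and UTP4 had no value there. Their median was 0.06, with WDR75 (14.2 and 18.9 FPKM) the highest. For RNA polymerase I, which transcribes ribosomal RNA, 1 of 12 genes was at least 20% lower and 3 higher in HCC1937, with a median of 0.14. TAF1D (5.82 and 3.17 FPKM) was the lower one and UBTF (11.9 and 17.2 FPKM) the farthest on the higher side. Mitochondrial ribosomal proteins, which build the separate ribosome of that organelle, lay between, with 19 of 76 at least 20% lower, 3 higher and a median of -0.13. MRPL53 (a difference of -0.96 at about 1 FPKM), MRPL11 (60.3 and 32.03 FPKM), MRPL58 (45.6 and 25.4 FPKM) and MRPL10 (27.7 and 15.6 FPKM) were the lowest of these. In THP-1 their median was 0.03.

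**Figure D4:**
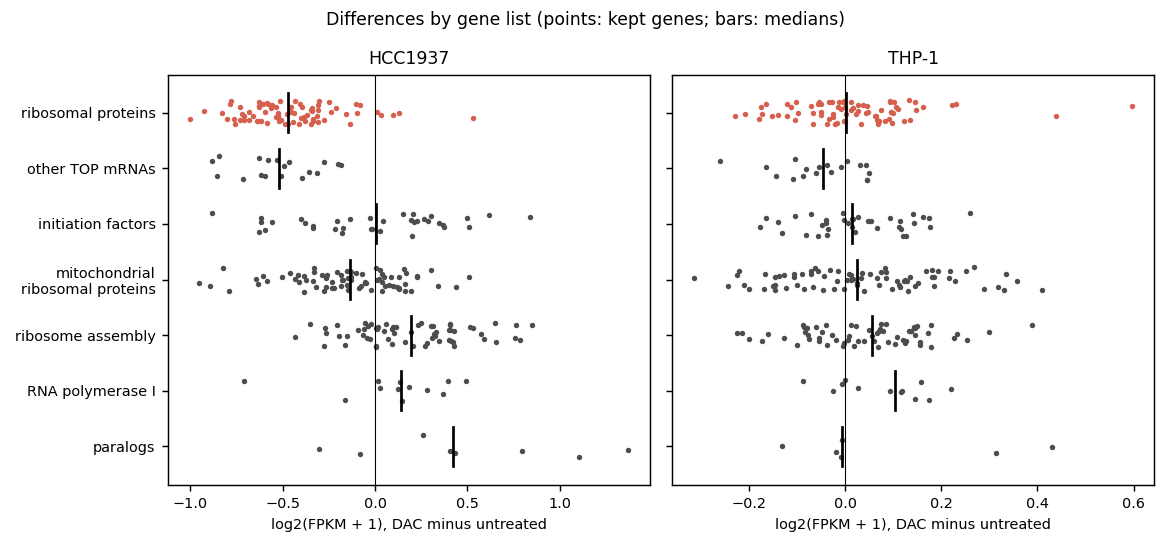
Each point is 1 kept gene of the list named on the y axis, the x axis is the log2(FPKM + 1) difference, DAC minus untreated, vertical bars are medians and vertical scatter within a list has no meaning; the x axes of the 2 lines differ in range. In HCC1937 the ribosomal proteins and other TOP mRNAs have medians of -0.47 and -0.52, and assembly factors 0.19.

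By start sequence, the 46 ribosomal protein genes with the pyrimidine run had a median of -0.51 in HCC1937 and the 16 without it at any listed start -0.37. At least 20% lower were 37 and 10 of these (80.4% and 62.5%). Of kept genes outside the set, 20.1% with the run and 11.1% without it were at least 20% lower. At a mean of 100 FPKM or more in HCC1937 these shares outside the set were 51.5% and 36.4%. The 15 genes without a sequence in the table (among them RPL30, RPL23A, RPS2, RPL37, RPL23, RPL5, RPS15A, RPS20, RPL7 and RPL8) had a median of -0.45. Among genes outside the set, listed TOP mRNAs included, 662 kept genes with the run had a median of 0.03 and 8982 without it 0.18. The 662 hold 12 listed TOP mRNAs, whose median was -0.50. At a mean of 100 FPKM or more these medians were -0.34 over 33 genes and -0.19 over 247, again with listed TOP mRNAs included. The run is a match of letters and not a measured start. In THP-1 the 46 and the 16 ribosomal protein genes had medians of 0.02 and -0.003.

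FAU, which makes the small-subunit protein eS30 as a fusion to a ubiquitin-like protein, was lower in HCC1937 as well. It had 469 and 329 FPKM there and 456 and 470 FPKM in THP-1. Of the 8 paralogs in HCC1937, 0 were at least 20% lower and 5 at least 25% higher, against 13.4% and 38.5% of all genes kept, with a median of 0.42 and 2 below 0. RPL10L, a testis-expressed copy of RPL10, was listed at 0 untreated and 1.59 FPKM with DAC, and RPL3L, a muscle-expressed copy of RPL3, at 0.39 and 1.99 FPKM. Both reached the limit of 1 FPKM only in the DAC library, so they could not have been counted as lower. Their parents RPL10 and RPL3 (337 and 223 FPKM) were lower. RPL7L1 had 19.97 and 35.4 FPKM, RPL39L 32.8 and 44.6 FPKM, and RPS27L, a p53 target, 1.83 and 2.75 FPKM. RPL26L1 (67.6 and 81.1 FPKM), RPL36AL (180 and 170 FPKM) and RPL22L1 (10.4 and 8.18 FPKM) passed neither size of change, and the last was lower at a ratio of 0.79 (0.68 to 0.91). In THP-1 RPL22L1 was at least 25% higher (5.84 and 8.22 FPKM), RPS27L had 30.6 and 38.3 FPKM, RPL7L1 89.2 and 81.3, RPL39L 41.6 and 41.0, RPL26L1 29.5 and 29.3, and RPL36AL 281 and 279 FPKM. RPL10L and RPL3L were at or below 0.06 FPKM in both THP-1 libraries.

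Ribosomal protein genes have many processed pseudogenes, near-identical copies to which reads can be assigned. The table holds 1129 rows named and annotated as their pseudogenes, called copies here whether processed or not. They include long rows such as RPL32P3 (4504 exon bases) and RPS10P7 (3018 exon bases). In HCC1937 27 genes had copies with at least 100 reads in sum in the untreated library. For 22 of the 27 the copies were lower with DAC, with a median of -0.43 against -0.46 for their parents. Copies that reached 100 reads only with DAC, such as those of RPS10, were left out by this limit. It therefore favours lower copies in this count and median. Copies and parents kept much the same order (Spearman rho 0.82, Pearson r 0.76, over 27 genes that share libraries and may share reads). For RPL39, a small protein of the exit tunnel (chrX:119786504-119791643, minus strand), 95.2% of the untreated reads assigned to gene or copies lay on copies. The copy RPL39P3 had 2133 and 1671 FPKM while the gene itself had 7.89 and 8.08 FPKM. Gene and copies together differed by -0.33, where the gene alone differed by 0.03, so the place of RPL39 among the genes that were not lower depends on where its reads were assigned. For RPL41 49.3% lay on copies, and gene and copies differed by -0.51 and -0.53. The copies of RPL6 (0.04), RPL12 (0.13), RPL23A (0.15), RPL24 (0.14) and RPL32 (0.38) were not lower. For RPL32 these reads (296 and 383) were those of the long row RPL32P3. With copies added to their parents, 72 of 77 genes were below 0 and 60 at least 20% lower, with a median of -0.49. Differences of copies, and of genes with copies, are log2 ratios of reads scaled by depth, without a pseudocount. Part of their shift from the values of the genes alone is therefore this change of scale. RPL39 went below 0 and RPS10 above it, from -0.10 to 0.08, on 54 and 128 reads of copies.

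**Figure D5:**
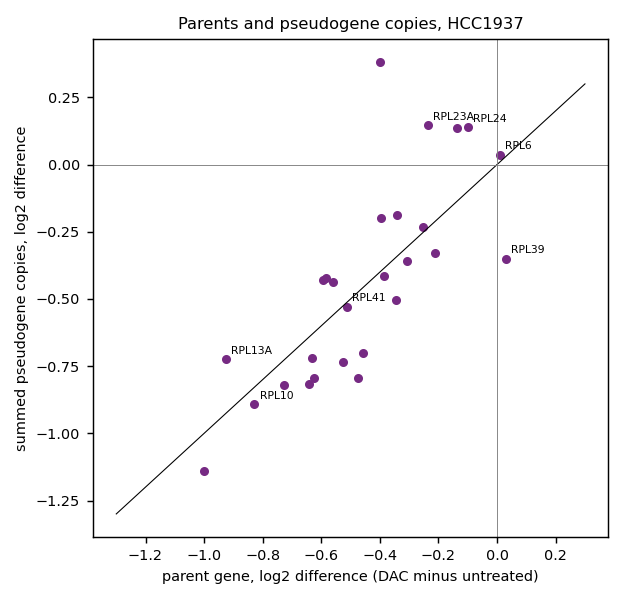
Each point is 1 of the 27 ribosomal protein genes whose pseudogene copies held at least 100 reads in the untreated HCC1937 library, a limit that favours lower copies. The x axis is the log2(FPKM + 1) difference of the gene, DAC minus untreated. The y axis is the log2 ratio of the summed reads of its copies, scaled by depth and without a pseudocount. The diagonal marks equal differences. For 22 genes the copies lie below 0, and RPL39 lies below 0 for its copies (-0.35) and just above 0 for the gene (0.03).

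Some genes share exon bases with another gene on the same strand, which can move reads between rows. The share was 39.4% for RPS10 (with RPS10-NUDT3) and 32.7% for RPL17 (with RPL17-C18orf32 and small nucleolar RNAs). In HCC1937 RPS10-NUDT3 had 1.82 and 2.94 FPKM and in THP-1 96.1 and 85.0 FPKM. Over the 69 genes with a same-strand share under 10% the HCC1937 median was -0.48, with 64 below 0 and 54 at least 20% lower. Overlap on the opposite strand was not part of this limit, and whether reads were counted by strand is not given. Genes on that strand covered 52.7% of the exon bases of RPL10, 21.6% of RPL30, 21.4% of RPS28 and 20.8% of RPS25.

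Of the mTOR pathway genes that act on TOP mRNAs, 4 of 18 kept were at least 20% lower and 5 at least 25% higher in HCC1937 (13.4% and 38.5% of all genes kept), with a median of 0.13 against 0.19 for all genes kept. DDIT4, an inhibitor of mTOR complex 1 induced by stress, had 297 and 59.6 FPKM, RPTOR, the scaffold of that complex, 6.24 and 2.80 FPKM, EIF4EBP2, a repressor of cap binding, 3.43 and 7.81 FPKM, and SESN1 1.24 and 2.33 FPKM. In THP-1 3 of 19 were lower (3.59% of all genes kept) and 0 higher (10.9%), the lower ones being MLST8 (93.4 and 60.3 FPKM), DDIT4 (71.3 and 50.3 FPKM) and EIF4EBP1 (371 and 289 FPKM). Of the genes around MDM2 and p53, 5 of 8 were at least 25% higher and 1 at least 20% lower in HCC1937 (38.5% and 13.4% of all genes kept), and 3 of 7 were higher in THP-1 (10.9%). MDM2 had 1.77 and 3.45 FPKM in HCC1937 and 8.74 and 10.0 FPKM in THP-1. CDKN1A, the cell cycle inhibitor p21, had 53.03 and 111 FPKM in HCC1937 and 33.0 and 47.7 FPKM in THP-1, and TP53I3 4.23 and 12.03 FPKM and 7.81 and 10.4 FPKM. CDKN2A, the source of p16 and of the MDM2 inhibitor ARF, had 203 and 66.3 FPKM in HCC1937 and was at or below 0.04 FPKM in THP-1. The part of these genes in the levels of the ribosomal proteins was not tested.

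The size of the lower level in HCC1937 depends on how its libraries are scaled, because the median of all genes there moves with the scaling. When the DAC library is scaled by the median ratio of genes at 1 FPKM or more in both libraries, the median of all genes moves from 0.19 to 0.06 and that of the ribosomal proteins from -0.47 to -0.62. When it is scaled by the upper quartile they become -0.09 and -0.78. A scaling moves both medians by about the same amount. The distance between them, -0.66 as deposited, was -0.51 with a pseudocount of 10, -0.59 at a minimum of 5 FPKM and -0.47 with no filter on low values. Under upper-quartile scaling 76 of the 77 genes lay below 0, and RPS26 lay above 0 under each scaling computed.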

How the data were processed

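Values are those of 1 deposited table, which names no unit. They are treated as FPKM made by the authors, because they have 2 decimals and value times exon length falls on whole multiples of a step in short genes. Multiples were counted as whole within 0.1 reads. With exon lengths of GENCODE 29 this held for 83.6% and 84.1% of the HCC1937 values of genes of 300 to 1000 bp. In THP-1 the exons of RefSeq-linked transcripts fitted better, at 54.8% and 58.5%, so its reads are approximate. Those steps gave the counted depths. Per the submitters' processing notes, the tools were cutadapt, FastQC, HTSeq and STAR, and the build hg38; versions, annotation and strand use are not given in the sources used here. Reads shared by copies or overlapping genes can therefore be split between rows in a way that cannot be checked.

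Rows with a repeated symbol (1079 of 60612) were left out, and 23440 of the 59533 others had THP-1 values. Differences are log2(FPKM + 1), DAC minus untreated, of the deposited values, over genes that reached 1 FPKM in the untreated or the DAC library of that line. A pseudocount of 1 understates the change of low genes. Differences of pseudogene copies, alone or added to their parents, were taken from reads without a pseudocount. Exact Clopper-Pearson 95% intervals of a ratio come from estimated reads. Over both lines, limma 3.58.1 (R 4.3.3) took the same log2 values, with cell line as blocking factor, trended moderation and Benjamini-Hochberg adjusted p-values (0.05, all genes tested); the script was tested on simulated data. The remaining scripts ran in Python 3.11.15 with scipy 1.17.1, numpy 2.4.6, matplotlib 3.10.9 and pandas 2.3.3.

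The genes, lists, sizes of change and tests were chosen with earlier results of these data known. The rule for named genes took per line the 6 lowest and 6 highest differences, the 4 highest and 4 lowest levels, the genes of the role groups, the paralogs and fusion genes, and up to 4 genes of each other list by absolute difference. Further named genes, the groups by level, chromosome and start sequence, the minimum of 100 reads for copies and the length of the pyrimidine run were chosen after values had been seen. Other scalings, pseudocounts and filters were tried, and the closing section gives their effect.

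Some genes that this rule names are not reported here by name and stay in the counts, medians and fits.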

Additional observations from a re-analysis of the deposited data

Results flagged for a closer look

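RPS29 moved in opposite directions in the 2 lines, with a log2 difference (DAC minus untreated) of -0.66 in HCC1937 and 0.44 in THP-1. Each value is 1 library against 1, and the difference between the lines was not tested.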

How the results depend on the processing

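In HCC1937 the median log2 difference of the ribosomal proteins stayed negative under every alternative computed. It was -0.62 with median-of-ratios scaling over genes at 1 FPKM or more in both libraries, -0.76 with that scaling over all genes above 0, -0.78 with upper-quartile scaling, -0.43 with equal sums of values, -0.44 with a pseudocount of 10 and -0.49 with pseudogene copies added. Median-of-ratios scaling leaves the gene set to be chosen. It was first computed over all genes above 0, and the limit of 1 FPKM was set after that result had been seen, so both are given. In the order of these first 3 scalings, 67, 72 and 72 genes were at least 20% lower (19.8%, 28.3% and 29.8% of all genes), 2, 11 and 13 were at least 2-fold lower, and 1, 0 and 0 were at least 25% higher. All genes at 2-fold split into 202 lower and 1452 higher as deposited, and 277 and 1182, 429 and 991, and 461 and 958 under these scalings. At least 2-fold lower were 0 genes with equal sums and 0 with a pseudocount of 10, where 0 were at least 25% higher.

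In THP-1 the median was -0.070, -0.091 and -0.052 under the same 3 scalings, so its sign depends on the scaling. It was 0.013 with equal sums and 0.013 over genes with little same-strand exon overlap. With median-of-ratios scaling over all genes above 0, 1 gene was at least 20% lower. With a pseudocount of 10, and with a minimum of 5 FPKM, 1 gene was at least 25% higher. limma called 0 ribosomal protein genes under each of its alternatives, including the fit without the line block. Of all genes it called 1 lower and 8 higher with upper-quartile scaling, 2 higher at a minimum of 5 FPKM and 1 higher with median-of-ratios scaling over all genes above 0. At an unadjusted p of 0.05, 1 ribosomal protein gene was lower under these 3 and under the other median-of-ratios scaling. The scaling over all genes above 0, the added copies and the overlap limit were chosen after seeing the data. The limma fit over both lines compares DAC with untreated within each line. No paired analysis was possible within a line because each group has 1 library, and leaving out a library would leave nothing to compare.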
